A study of Mus musculus with 6 samples.

Results

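Retinoic acid is made inside cells from vitamin A and acts through pairs of nuclear receptors, an RAR bound to an RXR, on short repeated DNA sites near its target genes. Retinol dehydrogenases and the aldehyde dehydrogenases of the Aldh1a family make it, the CRABP and FABP5 proteins carry it within the cell, and the enzymes of the Cyp26 family destroy it. In embryonic stem cells (ESCs) it is best known as a signal for differentiation, and in the germ line it starts meiosis through Stra8.

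The genes followed here were given as a set of names: the receptor genes Rara, Rarg, Rxra and Rxrb, the carrier genes Crabp1 and Crabp2, the synthesis gene Aldh1a2, and the response genes Stra8 and Cyp26a1. They are 9 of the 53927 gene symbols in the count tables, and each was found there. Mouse ESCs labelled wild type were compared between BRD0705/PD03 and 2i by RNA-seq of total RNA depleted of ribosomal RNA, with 3 libraries in each group. BRD0705/PD03 cells grew with BRD0705, an inhibitor selective for the kinase GSK3 alpha, at 8 µM, and 2i cells with CHIR99021, which inhibits both forms of GSK3, at 3 µM. Cells of both groups were kept in serum-free N2B27 medium on dishes coated with 0.1% gelatin and also received PD0325901, which blocks the kinase MEK, at 1 µM. The supplement B27 holds a vitamin A ester in its standard form, and the labels do not say which form was used. The labels name the line E14, an established male line, whereas the growth protocol tells of B6D2F1 lines derived in each medium on feeder cells, so the groups may differ in line as well as in medium.

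Library totals ranged from 16968959 to 51180228 counts. All 8 ESC markers checked were present. Pou5f1 stood at 687 ± 6.29 CPM in BRD0705/PD03 and 765 ± 54.9 CPM in 2i. CPM are counts per 1000000 counts of the library, given as mean ± SD (n = 3 in each group). Most of the 8 differed, with 3 passing the edgeR test as higher in BRD0705/PD03 and 4 as lower. Nanog stood at 324 ± 20.3 CPM in BRD0705/PD03 and 625 ± 8.52 CPM in 2i. Zfp42 stood at 257 ± 9.95 CPM in BRD0705/PD03 and 116 ± 1.3 CPM in 2i. The libraries did not all match the label of 1 male line, since the Y-linked gene Ddx3y stood at 122 ± 7.06 CPM in BRD0705/PD03 and at 3.03 ± 0.26 CPM in 2i. Fibroblast markers, which feeder cells carry, were also higher in BRD0705/PD03. Of 22 such markers, 20 passed the edgeR test as higher and 0 as lower (of all genes tested, 30.1% were higher and 31.4% lower), none was at 0 in all libraries, and their summed level ranged from 1510 to 2122 CPM in BRD0705/PD03 and from 748 to 778 CPM in 2i. Of 10 neural markers, 8 were tested, with 5 higher and 2 lower (Sox1 and Tubb3) in BRD0705/PD03. Their summed level ranged from 239 to 241 CPM in BRD0705/PD03 and from 171 to 180 CPM in 2i. Pax6 changed most, at 13.1 ± 0.242 CPM in BRD0705/PD03 and 0.363 ± 0.0969 CPM in 2i, and passed the filter only through the BRD0705/PD03 libraries. Of 10 endoderm markers, 6 were tested, with 3 higher and 1 lower. In bulk RNA, fewer cells of a type and less RNA per cell cannot be told apart. Medium, Y-linked RNA, fibroblast RNA and the summed neural markers separate the same libraries and cannot be told apart by these 6 samples.

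The promoter of Cyp26a1 and that of Stra8 are shown because these are the genes of the set best known to respond to retinoic acid. Both windows run from 250 bases before to 50 bases after the RefSeq start on GRCm38.p6, plus strand, chr19:37697558-37697857 for Cyp26a1 and chr6:34920698-34920997 for Stra8. Capitals mark every 6-letter receptor site searched on both strands. The letters searched were AGGTCA, then the variant AGTTCA, then the variant GGGTCA and finally the variant GGTTCA.
Cyp26a1: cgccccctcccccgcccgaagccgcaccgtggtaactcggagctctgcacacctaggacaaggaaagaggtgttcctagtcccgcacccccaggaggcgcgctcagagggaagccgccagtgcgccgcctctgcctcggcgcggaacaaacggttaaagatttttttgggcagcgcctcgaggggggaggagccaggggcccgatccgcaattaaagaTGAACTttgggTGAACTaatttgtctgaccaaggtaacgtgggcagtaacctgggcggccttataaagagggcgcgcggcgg
Stra8: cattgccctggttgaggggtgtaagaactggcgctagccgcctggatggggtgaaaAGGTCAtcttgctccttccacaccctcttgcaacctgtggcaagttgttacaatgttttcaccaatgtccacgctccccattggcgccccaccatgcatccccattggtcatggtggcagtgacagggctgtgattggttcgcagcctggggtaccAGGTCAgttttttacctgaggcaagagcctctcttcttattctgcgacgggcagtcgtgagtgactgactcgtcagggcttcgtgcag
In Cyp26a1 the capitals form a direct repeat with a spacer of 5 bases, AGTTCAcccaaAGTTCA on the minus strand, from 32 to 16 bases before the start. In Stra8 the capitals are separate single sites. Direct repeats of these sites with a spacer of 5 bases were found in 0.115% of 27025 genes with a RefSeq promoter window, with a spacer of 2 bases in 0.311% and with a spacer of 1 base in 0.263%. Single sites were found in 46.9%. RefSeq windows were at hand for 8 of the 9 genes (14 windows, none for Crabp2), and Cyp26a1 was the only gene of the set with a direct repeat in them. A match is a string of letters and not evidence of binding, and sites further from the start were not searched.

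Of the 9 genes, 8 passed the filter on low counts. In BRD0705/PD03, 5 of them were higher and 3 lower, with 0.05 as the limit for the adjusted p (edgeR's quasi-likelihood test, Benjamini-Hochberg adjustment over 20422 genes). The 5 include Cyp26a1, which passed the filter only through the BRD0705/PD03 libraries and lost its call with DESeq2 and without any of 3 libraries, so that 4 were then higher. Stra8 was below the filter. The background was high, since the same test called 61.4% of all genes, 30.1% as higher and 31.4% as lower. The groups of libraries did not overlap for those 8 genes, as for 66.0% of all genes tested. The set was chosen with results of these data known, so the share of it that was called is a description. Crabp2 stood out by size, with a change larger than that of 96.9% of all genes tested, followed by Crabp1 at 89.3% and Rxra at 85.4%. Rxrb changed less than most genes, at 42.1%.

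**Figure D1:**
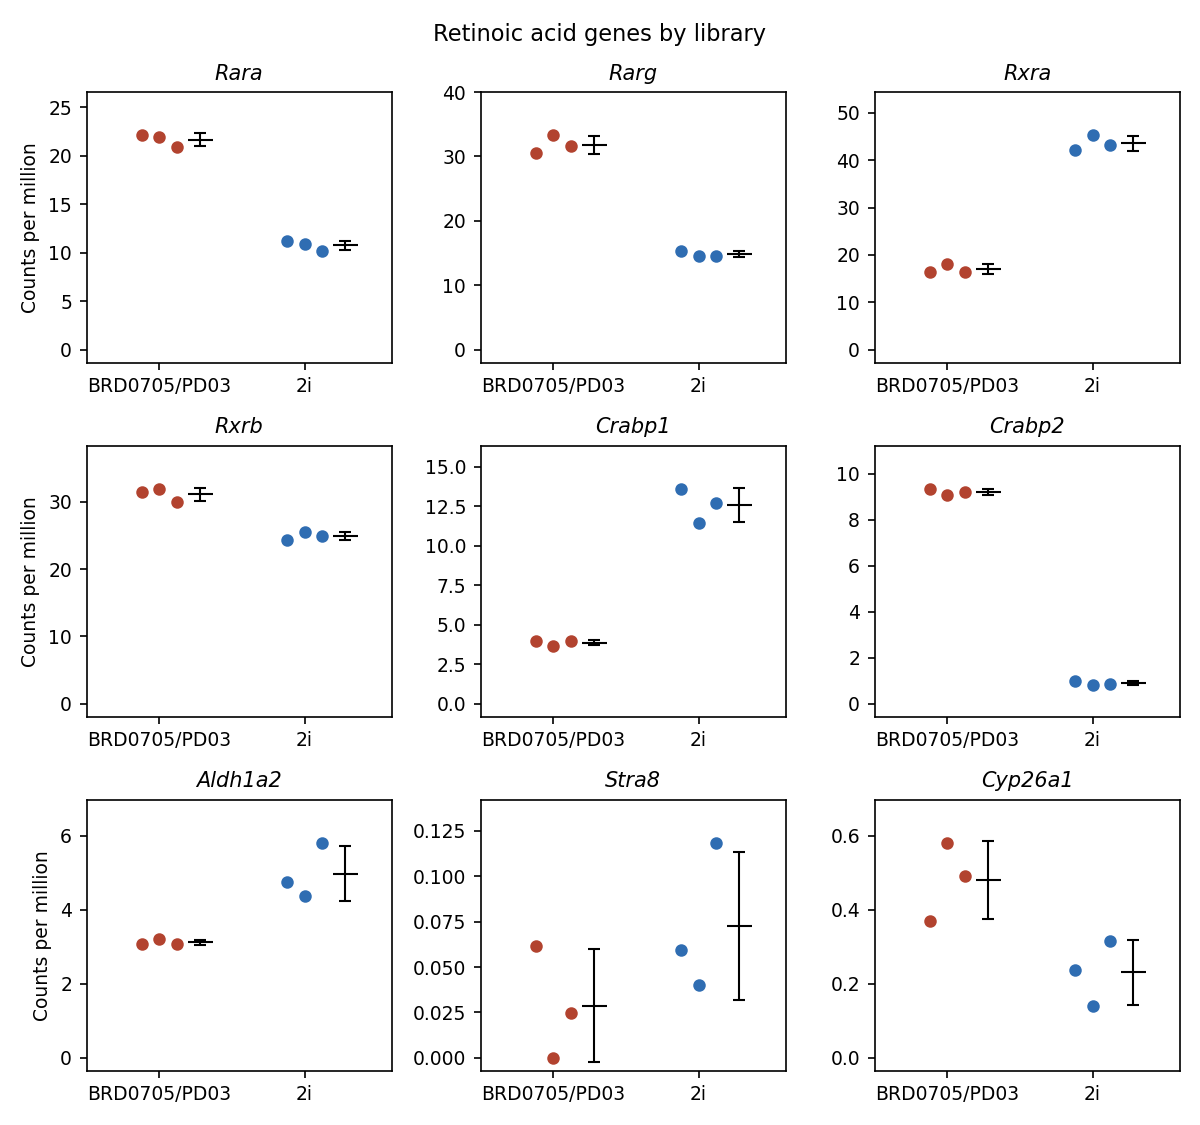
Level in CPM of each of the 9 genes in each library (points), BRD0705/PD03 on the left and 2i on the right of each panel, with the mean and SD of 3 libraries as the black bar. Each panel has its own scale. The 2 groups do not overlap except for Stra8, which had at most 3 counts in any library.

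The RAR genes were both higher in BRD0705/PD03. Rara (ENSMUSG00000037992.16, chr11:98927818-98974942 on GRCm38), which encodes retinoic acid receptor alpha, had 22.1, 21.9 and 20.9 CPM in the BRD0705/PD03 libraries, against 11.2, 10.9 and 10.2 CPM in the 2i libraries. Every BRD0705/PD03 library was above every 2i library, by 2.01-fold on average in the fit (log2 fold change 1.01 ± 0.07 SE, edgeR adjusted p = 3.8e-10). Rarg (ENSMUSG00000001288.15, chr15:102234938-102257517), which encodes the gamma receptor, had 30.6, 33.3 and 31.6 CPM in BRD0705/PD03, against 15.4, 14.6 and 14.6 CPM in 2i. It rose by 2.15-fold (1.10 ± 0.06, edgeR adjusted p = 1.7e-11). The gamma receptor is the form that ESC studies most often link to the early response to retinoic acid. Both genes moved by nearly the same factor, and the share of Rarg in the length-scaled sum of Rara and Rarg was 60.1 ± 1.30% in BRD0705/PD03 and 58.6 ± 0.739% in 2i (exact permutation test over 6 libraries, two-sided p = 0.2, smallest possible 0.1). The third RAR gene, Rarb, itself a classical target of retinoic acid, was below the filter, with 13 counts over the BRD0705/PD03 libraries and 6 over the 2i libraries.

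The RXR genes moved in opposite directions. Rxra (ENSMUSG00000015846.14, chr2:27676440-27762957), which encodes retinoid X receptor alpha, the common partner of RARs and of many other nuclear receptors, had 16.5, 18.2 and 16.5 CPM in BRD0705/PD03, against 42.1, 45.3 and 43.2 CPM in 2i. The groups were far apart, with the level 2.57-fold higher in 2i (-1.36 ± 0.06, edgeR adjusted p = 4.3e-13). Rxrb (ENSMUSG00000039656.17, chr17:34031812-34038399), which encodes the beta form, had 31.4, 31.9 and 30.0 CPM in BRD0705/PD03, against 24.3, 25.5 and 24.9 CPM in 2i. This rise was small but larger than the spread of the libraries (1.24-fold, 0.32 ± 0.06, edgeR adjusted p = 7.5e-05), and it was not called in a test against a fold of 1.5. Rxrg, the third RXR gene, was below the filter, with 12 counts over the BRD0705/PD03 libraries and 0 over the 2i libraries. Scaled for depth, the 12 counts were 3.66 times a floor of 3 counts over the 2i group. That value leaves out the counting error of the 12 and is not a lower limit.

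To compare levels between genes, counts were divided by the length of each gene's merged exons and scaled so that each library has the same sum, as in TPM. On that scale Rxra made up 28.5 ± 0.817% of the sum of Rxra and Rxrb in BRD0705/PD03 and 56.0 ± 0.337% in 2i (SD, n = 3 each), a difference of -27.5 percentage points. The libraries of the groups did not overlap, and the exact permutation test gave its smallest possible p (p = 0.1, two-sided), so it could not pass 0.05. With the longest annotated transcript as the length the share was 22.7% in BRD0705/PD03 and 48.3% in 2i, so the fall holds on both scales, while which RXR gene led in 2i depends on the length used. The summed level of Rara and Rarg was 29.7 ± 1.09 TPM in BRD0705/PD03 and 14.7 ± 0.743 TPM in 2i, and that of Rxra and Rxrb was 26.2 ± 0.976 TPM in BRD0705/PD03 and 35.3 ± 1.75 TPM in 2i. RXR transcripts thus outnumbered RAR transcripts in each 2i library, and RAR transcripts outnumbered RXR transcripts in each BRD0705/PD03 library. These sums and shares were chosen after the values were seen.

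The carrier genes swapped places. Crabp2 (ENSMUSG00000004885.5, chr3:87948666-87953376), whose protein delivers retinoic acid to RARs in the nucleus, had 9.34, 9.08 and 9.20 CPM in BRD0705/PD03, against 1.01, 0.818 and 0.868 CPM in 2i. The 2i level rests on 80 counts in all, and that of BRD0705/PD03 on 928. Crabp2 rose by 10.5-fold, the largest change in the set (3.39 ± 0.14, edgeR adjusted p = 1.8e-13). Crabp1 (ENSMUSG00000032291.8, chr9:54764748-54773110), whose protein also binds retinoic acid in the cytoplasm and is linked to its breakdown, had 3.94, 3.67 and 3.97 CPM in BRD0705/PD03, against 13.6, 11.4 and 12.7 CPM in 2i. Its level was 3.22-fold higher in 2i (-1.69 ± 0.10, edgeR adjusted p = 5.4e-11). Per length, Crabp2 made up 59.1 ± 0.824% of the sum of both genes in BRD0705/PD03 and 4.15 ± 0.165% in 2i (exact permutation p = 0.1, two-sided, the smallest possible). Their summed level was 28.2 ± 0.676 TPM in BRD0705/PD03 and 40.6 ± 5.04 TPM in 2i.

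Crabp2, Rara and Rarg, like Rxrb and Cyp26a1, were higher in BRD0705/PD03, the group with more fibroblast RNA. Within that group, in the order of replicates 1, 2 and 3, the summed fibroblast markers were at 1510, 1905 and 2122 CPM. In the same order Crabp2 had 9.34, 9.08 and 9.20 CPM, Rara 22.1, 21.9 and 20.9 CPM, and Rarg 30.6, 33.3 and 31.6 CPM. The highest of the BRD0705/PD03 libraries exceeded the lowest by 1.40 times for the summed fibroblast markers, by 1.03 times for Crabp2, 1.06 times for Rara and 1.09 times for Rarg. The vitamin A gene Aldh1a1 varied by 2.16 times. The fibroblast markers were not alike in this. Tagln, a gene of contractile cells, had 60.3, 67.1 and 63.1 CPM in BRD0705/PD03, against 5.82, 5.17 and 4.22 CPM in 2i, and was 12.6-fold higher in the fit, beside 10.5-fold for Crabp2. Acta2, the smooth muscle actin gene, had 57.9, 59.6 and 64.4 CPM in BRD0705/PD03, against 10.7, 9.58 and 10.5 CPM in 2i (5.97-fold). The summed markers differed between the groups by 2.41 times in mean CPM. The part of fibroblast RNA in the differences of Crabp2, Rara, Rarg and the other genes was not tested.

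**Figure D2:**
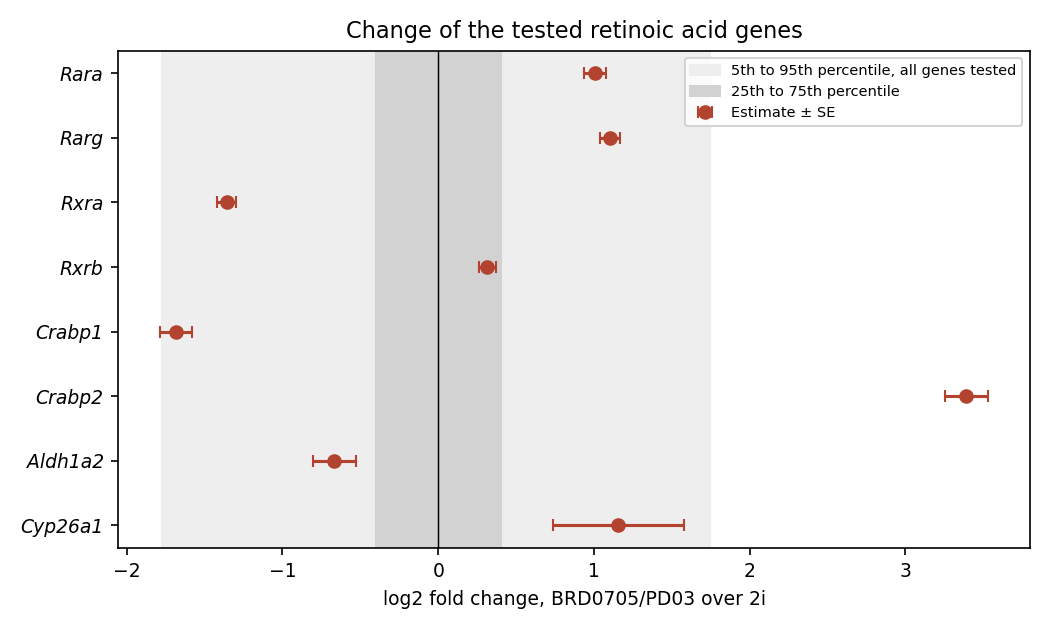
Log2 fold change of BRD0705/PD03 over 2i (points, with SE as bars) for the 8 genes tested, over the middle 50% (dark band) and middle 90% (light band) of all 20422 genes tested. Crabp2 lies outside the light band at 3.39, and Rxrb lies inside the dark band at 0.32.

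Aldh1a2 (ENSMUSG00000013584.5, chr9:71215789-71296243) encodes the dehydrogenase that makes most retinoic acid in the early embryo. It had 3.08, 3.20 and 3.07 CPM in BRD0705/PD03, against 4.75, 4.37 and 5.80 CPM in 2i. Each BRD0705/PD03 library was below each 2i library, and the 2i libraries were spread more widely (-0.67 ± 0.14, edgeR adjusted p = 0.00044). The decrease did not pass the test against a fold of 1.5 (edgeR adjusted p = 0.357).

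The response genes were nearly silent in both media. Cyp26a1 (ENSMUSG00000024987.6, chr19:37697798-37701536), whose enzyme destroys retinoic acid and whose transcription is a standard readout of it, had 12, 16 and 20 counts in the BRD0705/PD03 libraries, against 4, 7 and 8 counts in the 2i libraries. That is 0.370, 0.581 and 0.490 CPM in BRD0705/PD03, against 0.237, 0.140 and 0.316 CPM in 2i. All values were below 1 CPM, and the groups were separated by a narrow margin. The difference was called (1.16 ± 0.42, edgeR adjusted p = 0.0234), but Cyp26a1 passed the filter only through the BRD0705/PD03 libraries, so it had to be higher there to be tested. The call was lost with DESeq2 (adjusted p = 0.215), without BRD0705/PD03 replicate 2 (edgeR adjusted p = 0.102), without BRD0705/PD03 replicate 3 (0.0748) and without 2i replicate 2 (0.189, where the log2 fold change was 0.76). Stra8 (ENSMUSG00000029848.11, chr6:34920163-34939344), which starts the meiotic programme in germ cells, had 2, 0 and 1 counts in BRD0705/PD03, against 1, 2 and 3 counts in 2i. No library held more than 3 counts, and in the deepest library 3 counts correspond to 0.0598 CPM. The ratio of the summed counts, BRD0705/PD03 over 2i and scaled for depth, was 0.458. Its exact binomial 95% interval ran from 0.0741 to 2.14, with counting error only, so no direction is given.

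**Figure D3:**
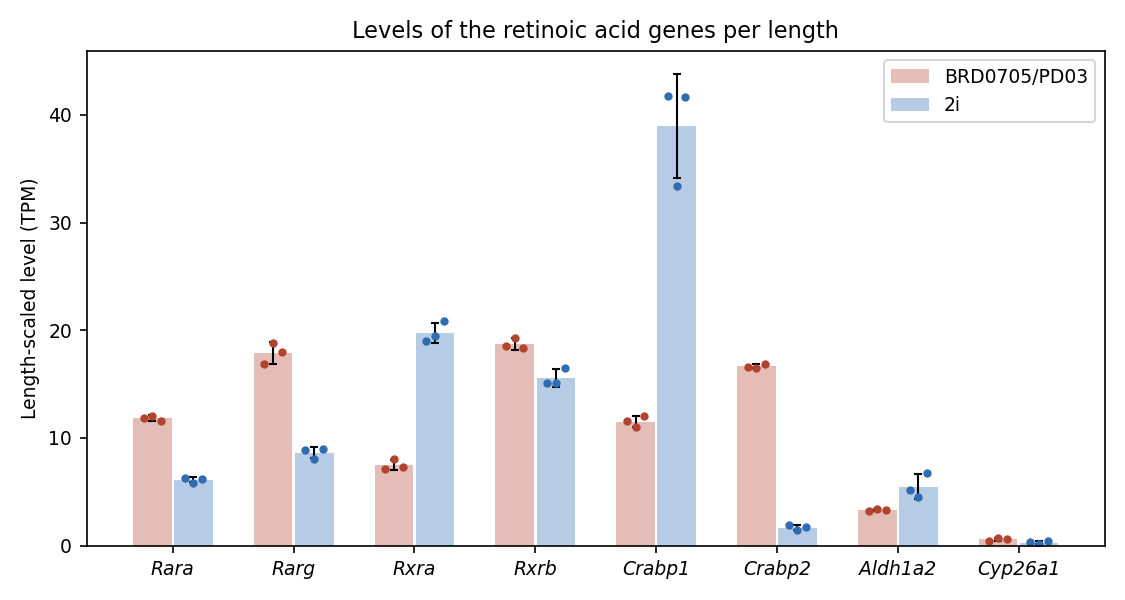
Length-scaled level (TPM) of 8 genes, Stra8 left out, with bars for the mean, whiskers for the SD and points for the 3 libraries of each group, BRD0705/PD03 left of 2i. Crabp1 leads in 2i at 38.9 TPM, whereas Rxrb, Rarg and Crabp2 lead in BRD0705/PD03 at 18.7, 17.9 and 16.6 TPM.

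The order of the levels per length differed between the media. In BRD0705/PD03 it was Rxrb, Rarg, Crabp2, Rara, Crabp1, Rxra, Aldh1a2, Cyp26a1 and Stra8. Rxrb and Rarg overlapped over the libraries, as did Rarg and Crabp2, and Rara and Crabp1, and the other neighbours lay apart. In 2i the order was Crabp1, Rxra, Rxrb, Rarg, Rara, Aldh1a2, Crabp2, Cyp26a1 and Stra8. There Rara overlapped with Aldh1a2 and Cyp26a1 with Stra8. Crabp1 was the most abundant of the 9 in 2i at 38.9 ± 4.83 TPM, and stood at 11.5 ± 0.504 TPM in BRD0705/PD03. Crabp2 stood at 16.6 ± 0.182 TPM in BRD0705/PD03 and 1.69 ± 0.218 TPM in 2i. No annotated gene shares exon bases with any of the 9.

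Many other genes followed the same split of the libraries. Over the 6 libraries, 2492 of 11487 other genes, each averaging 5 CPM or more, had a Pearson r of at least 0.95 with Rarg in log2 CPM, the closest being Psip1, Gba2 and Pxdn. For Crabp1 the number was 2782, with Syvn1, Trappc10 and Ppox closest. For the sparsely counted Cyp26a1 it was 75 of 11488, with Gm44638, Vmn2r124 and Ccdc50 closest. With libraries in 2 groups such values mostly follow the group difference and single out few genes.

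Genes of retinoic acid handling beyond the set were called in both directions, as were genes in general. The 8 lists held 88 different genes found in the tables, the 9 included, and 67 passed the filter. Of these 26 were higher, 25 lower and 16 not called (over all genes tested, 30.1% higher and 31.4% lower), with a median log2 fold change of 0.0036 beside 0.00030 over all genes tested. These lists, too, were drawn up with results of these data known.

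Among 8 carrier and uptake genes, 6 were tested, with 2 higher and 2 lower (median 0.03). Of all genes tested, 30.1% were higher and 31.4% lower. Fabp5, whose protein can carry retinoic acid to PPAR delta in place of RARs, stood at 13.5 ± 1.12 CPM in BRD0705/PD03 and 47.8 ± 3.45 CPM in 2i (-1.83 ± 0.07, edgeR adjusted p = 1.2e-13). Ppard, which encodes PPAR delta, was lower too (7.65 ± 0.519 CPM in BRD0705/PD03 and 11.6 ± 1.19 CPM in 2i, edgeR adjusted p = 2.0e-05). Crabp2 thus rose beside a fall of both Crabp1 and Fabp5.

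Among 13 genes of synthesis and storage, 11 were tested, with 4 higher and 5 lower (median -0.32), beside 30.1% and 31.4% of all genes. Rdh10, the main retinol dehydrogenase of the embryo, stood at 13.3 ± 0.671 CPM in BRD0705/PD03 and 7.07 ± 0.5 CPM in 2i (0.91 ± 0.09). Dhrs4, which encodes an enzyme that reduces retinal and other carbonyls, rose by 2.56-fold, whereas Rdh11 fell slightly (-0.32 ± 0.05). Aldh1a3, a relative of Aldh1a2 with the same reaction, stood at 3.36 ± 0.903 CPM in BRD0705/PD03 and 11.2 ± 1.07 CPM in 2i (-1.76 ± 0.17, edgeR adjusted p = 4.2e-06). Aldh1a1, the third member, had 1.11, 2.40 and 2.01 CPM in BRD0705/PD03, against 1.19, 0.938 and 0.789 CPM in 2i. It was called higher (edgeR adjusted p = 0.00684) although the groups overlapped. In BRD0705/PD03 its lowest library was also the lowest in fibroblast RNA, but its highest library, replicate 2, was not the highest in fibroblast RNA.

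Of the other clearance genes, Cyp26b1 was not called (0.505 ± 0.064 CPM in BRD0705/PD03 and 0.304 ± 0.113 CPM in 2i, edgeR adjusted p = 0.132). Cyp26c1 was below the filter, with 7 counts over the BRD0705/PD03 libraries and 27 over the 2i libraries.

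**Figure D4:**
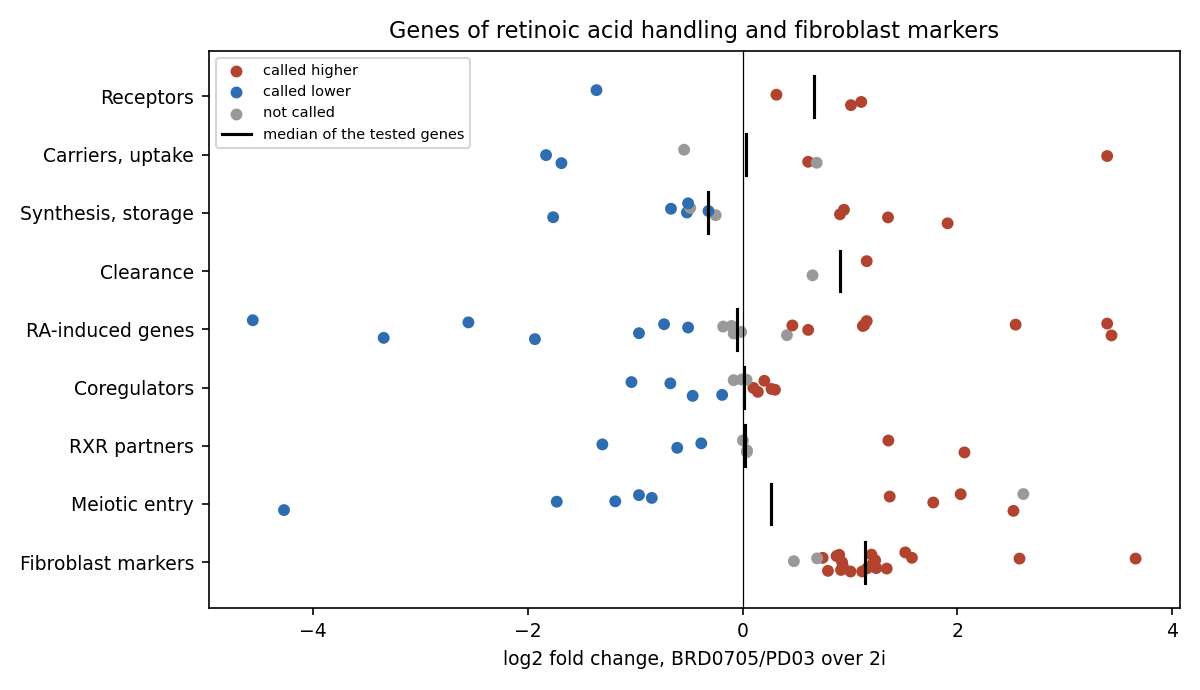
Log2 fold change of BRD0705/PD03 over 2i for each tested gene of 8 lists of retinoic acid handling and of the fibroblast markers (points, coloured by call at an adjusted p under 0.05, spread vertically for sight), with the median of each list as a bar. The RA-induced genes lie on both sides of 0 around a median of -0.05, and the fibroblast markers lie between 0.48 and 3.66.

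Genes known to be induced by retinoic acid in other settings were called in both directions, as were genes in general. Of 30 such genes, 20 were tested, 8 higher and 7 lower (median -0.05), beside 30.1% higher and 31.4% lower of all genes, and 10 were below the filter, Stra8 and Rarb among them. Meis2, a homeodomain gene, stood at 2.0 ± 0.167 CPM in BRD0705/PD03 and 46.6 ± 1.23 CPM in 2i (-4.56 ± 0.08, edgeR adjusted p = 7.8e-19). Cdx1, an early target of retinoic acid in embryos that also responds to Wnt signals, was named after its value was seen and was lower, at 0.173 ± 0.0809 CPM in BRD0705/PD03 and 1.76 ± 0.111 CPM in 2i. It passed the filter only through the 2i libraries, so it had to be lower in BRD0705/PD03 to be tested.

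The meiotic genes around Stra8 were called in both directions, as were genes in general (30.1% higher and 31.4% lower of all genes tested). Of 13 names 12 were in the tables and 10 were tested, with 4 higher and 5 lower (median 0.26). Dazl, which makes germ cells competent to enter meiosis, stood at 7.63 ± 1.2 CPM in BRD0705/PD03 and 146 ± 1.44 CPM in 2i. Rec8, a meiotic cohesin gene that responds to retinoic acid and was named after its value was seen, stood at 5.41 ± 0.244 CPM in BRD0705/PD03 and 10.6 ± 0.27 CPM in 2i (-0.96 ± 0.09), and the cohesin gene Smc1b fell by 1.73 on the log2 scale. The synaptonemal complex genes Sycp1 (1.37 ± 0.08) and Sycp3 (2.03 ± 0.14) rose. Stra8 itself had 3 counts or fewer in each library of both media.

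All 12 genes of receptor cofactors were tested, 5 higher and 4 lower, with log2 fold changes from -1.03 to 0.30 (median 0.01). For these and the receptor genes below, the shares over all genes tested were 30.1% higher and 31.4% lower. The coactivator genes Ncoa1 (20.7 ± 1.12 CPM in BRD0705/PD03 and 42.4 ± 1.87 CPM in 2i, -1.03 ± 0.06) and Ncoa3 (-0.46 ± 0.04) fell, as did Tbl1x (-0.67 ± 0.04), an X-linked subunit gene of the corepressor complex. Ncor1, the corepressor that silences unliganded RARs, rose by 0.20 ± 0.04. Of 13 receptor genes whose proteins pair with RXRs or are related to such partners, 8 were tested, 2 higher and 3 lower (median 0.02). Nr4a1, an orphan receptor and immediate early gene, stood at 22.3 ± 1.02 CPM in BRD0705/PD03 and 8.70 ± 0.136 CPM in 2i, Nr1i3 was called higher at a low level (2.06 on the log2 scale) but passed the filter only through the BRD0705/PD03 libraries, and the liver X receptor gene Nr1h2 fell by 0.38.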

How the data were processed

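Per the submitters' processing notes, Salmon and the build mm10 were used. The deposited tables hold whole numbers, taken as estimated counts that the authors had rounded and not scaled between libraries. For the version of Salmon, the annotation and the strand setting, nothing was given in the sources used here. Such counts split a read among the genes it matches. Groups and replicate numbers came from sample titles. The labels do not speak of separate cultures. P-values therefore reflect the spread between libraries, possibly a technical one. No pair in a group agreed within sampling noise (chi-square per degree of freedom 2.77 to 9.84).

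The test was the two-sided quasi-likelihood test of edgeR 4.0.16 (R 4.3.3), with filterByExpr (at least 0.335 CPM in 3 libraries), TMM and group as the only term. The SE was taken as log2 fold change over the root of F. CPM use effective totals. TPM were computed here from exons of GENCODE M21 (GRCm38, the assembly of mm10), where 51951 symbols matched 1 gene. The fit was also run on simulated counts with a common spread for all genes. Only calls of the right sign among changed genes were counted there, so false calls were not checked.

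The genes and lists were chosen with earlier results of these data known. Named were the 9 genes, up to 4 called genes of each list by smallest p, the other Rar, Rxr, Cyp26 and Aldh1a genes, and the 3 genes most like Cyp26a1, Crabp1 and Rarg. Some genes that this rule names are not reported here. Other named genes are marked in the text. The alternatives were DESeq2 1.42.0, other size factors, filters, thinning, a fold of 1.5, the replicate block and leaving out each library. Counting error limits genes with few counts.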

Additional observations from a re-analysis of the deposited data

How the results depend on the processing

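Rara, Rarg, Rxra, Rxrb, Crabp1, Crabp2 and Aldh1a2 kept their direction and their call under each alternative scaling, filter, test, thinning and left-out library that was run, apart from the test against a fold of 1.5. With that test 3 genes of the set were higher (12.2% of all genes) and 2 lower (12.7%), and of the pathway lists 14 were higher and 16 lower. Over all genes it called 2498 as higher and 2596 as lower. Log2 fold changes ranged from 3.29 to 3.46 for Crabp2, from -1.74 to -1.62 for Crabp1, from -1.41 to -1.29 for Rxra, from 0.30 to 0.38 for Rxrb and from -0.76 to -0.53 for Aldh1a2. Cyp26a1 lost its call with DESeq2 (log2 fold change 1.12) and without some libraries, with values from 0.76 to 1.49 when 1 library was left out, and had no value with a mean of at least 1 CPM or after thinning. With lengths of the longest transcript, Rxra ranked 3 and Rxrb ranked 2 in 2i. Same-numbered libraries of the 2 groups did not deviate together (r = -0.0082, 0.034 and -0.036), and with the replicate block 5 genes of the set were higher and 3 lower, 6059 and 6376 over all genes. Depth limits Cyp26a1, Stra8, Rarb, Rxrg and Cyp26c1, each with under 50 counts in a group.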
